A study of Homo sapiens with 6 samples.

Results

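Transcript levels 6 h after release from a thymidine block were compared with levels in cells still held in the block. The comparison rests on 6 of the 17 libraries of the series, all from RPE-1, a human retinal pigment epithelial cell line immortalised with telomerase. The libraries were chosen by the names of the count table's columns: 3 of arrested cells and 3 of cells released for 6 h, each carrying the letter A, B or C. The letters were taken as the 3 independent experiments that the series' design text mentions, and each released library was set against the arrested library of the same letter. Arrested cells had spent 24 h in 2 mM thymidine and were not released. Released cells had the same 24 h block, were washed 3 times, went back into growth medium, received the solvent DMSO 1 h after the wash and were collected 5 h later. By the design text the 6 h cells are in G2, and the thymidine block holds cells where S phase begins. The series was made to find genes under control of the checkpoint kinase ATR, and none of the 6 libraries had an ATR inhibitor. Cell cycle position, the washes with fresh medium and DMSO all differ between the groups, and their effects cannot be told apart.

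Thymidine in excess depletes dCTP and stalls DNA synthesis, so cells collect at the G1/S boundary with their replication factors in place. After the block is washed out they replicate their DNA together and then enter G2, when the proteins of mitosis are made ahead of division. Many of these mitotic genes carry CHR and CCAAT elements close to their start sites, bound by the DREAM and B-MYB complexes and by NF-Y, whereas many replication genes carry E2F sites. Thymidine also brings replication stress, which can activate the tumour suppressor p53.

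Totals of the 6 libraries ran from 1758747 to 2180968 counts, so 1 CPM (counts scaled to a common library size) is about 2 counts and low genes are imprecise. The library kit marks the strand of the RNA, and the counts lay mostly on the strand opposite to the gene. Of 2855 pairs of a coding gene and a noncoding feature opposite to it, 1922 (67.3%) had more counts on the noncoding feature. For an overlapped feature the counts may thus stem from either strand's gene, and each such feature is given with its partner; the cause of the strand distribution was not tested. Of the counts in the 6 libraries 78.6% lay on overlapped features and 14.2% on features with no exon opposite to them. Features with no exon opposite have no such partner, but what share of their gene's reads was counted is not known. In experiment B the feature ENSG00000226958 held 8.25% of the counts in arrested cells and 8.83% at 6 h, and in A and C it held between 1.3% and 4.46%. The summed level of 13 markers of retinal pigment epithelium was 16500.1 to 19149 CPM in arrested cells and 14993 to 19118 CPM at 6 h. Most of these counts lay on overlapped features, BEST1 (opposite FTH1), KRT8 (opposite KRT18) and PMEL (opposite CDK2), and 2 of the 13, RPE65 and TTR, had no count in any of the 6 libraries. The other markers with no feature opposite were low. Over the 6 libraries SERPINF1 had 244 counts, MITF 63, OTX2 26, TYR 19, LRAT 4 and RLBP1 2. The summed level therefore does not tell the cell type. The summed level of 20 markers of other cell types was 50.6 to 106 CPM in arrested cells and 63.7 to 128 CPM at 6 h, with 7 of the 20 at 0 throughout.

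Of 13510 features tested, 1041 (7.71%) differed between 6 h and arrest at an adjusted p under 0.05 (edgeR, quasi-likelihood test with the experiment as a block, Benjamini-Hochberg), and such a feature is called. Of these, 509 (3.77% of those tested) were higher at 6 h and 532 (3.94%) were lower. The change reached at least 1 on the log2 scale in 190 of the higher and 163 of the lower features. The median change of all tested features was -0.00812 on the log2 scale. Levels in the 3 libraries of each condition did not overlap for 2265 of the tested features (16.8%) and for 821 of the 1041 called. Without the block 314 features were called, 171 higher and 143 lower, and all 314 were among the 1041 with the same direction. Leaving out the 6 h library of experiment C left 675 calls, and leaving out its arrested library left 649. With the whole of experiment B left out 930 features were called. Of the overlapped features 10.5% of 7086 were called, and of those with no exon opposite 4.48% of 6208 were. In the overlapped features falls (426) outnumbered rises (315), and in the others rises (188) outnumbered falls (90). Of the features in the authors' deposited table, 384 passed an adjusted p of 0.05 for these conditions, and all 384 were also called here with the same direction. In bulk RNA a lower level can reflect fewer cells that hold a transcript or less of it per cell, and these cannot be told apart.

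**Figure D1:**
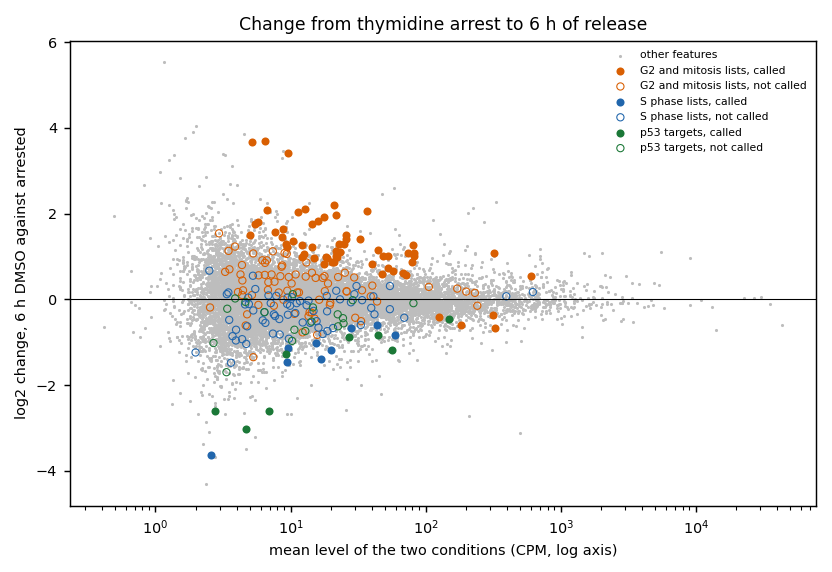
Log2 change at 6 h against arrested cells (vertical axis) by the mean CPM of both conditions (horizontal log axis), 1 point for each of 13510 features. Members of the G2 and mitosis lists (orange), the S phase lists (blue) and the p53 target list (green) are filled where called: 56 of the orange points are called above 0 and 4 below, and every filled blue or green point lies below 0.

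Of 146 genes in 5 lists of G2 and mitosis, 136 were tested, of which 56 rose, 4 fell and 76 were not called. Members of all gene lists were chosen with earlier results of these data known, so counts of called members describe the lists. Each such count is to be read beside the shares of all tested features, 3.77% higher and 3.94% lower. The median change over the 136 was 0.63 on the log2 scale, and from the CPM of each pair it was 0.84, 0.45 and 0.63 in A, B and C. Among the 81 members with no feature opposite to them, 32 rose and none fell, with a median of 0.66. Without the block 39 of the 136 rose and 1 fell, and with experiment B left out 55 rose and 4 fell, with a median of 0.85.

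The upstream sequences of 7 of these genes are printed as examples. Each rose, has no feature opposite to it and holds the CHR letters, and the 7 were chosen after their values were seen from the 17 of 26 matched risen members that hold these letters near the start. They were taken from RefSeq promoters of GRCh38.p14, at the start listed first for the gene. Each runs 5′ to 3′ on the gene's strand and ends at the last base before the start. Capitals mark the CHR letters TTTGAA and the CCAAT letters on either strand, so TTCAAA and ATTGG are marked as well.
MKI67, chr10:128126424-128126541, minus strand: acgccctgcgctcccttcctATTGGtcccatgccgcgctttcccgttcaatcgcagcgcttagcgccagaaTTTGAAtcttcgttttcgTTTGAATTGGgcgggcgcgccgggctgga
KPNA2, chr17:68035616-68035734, plus strand: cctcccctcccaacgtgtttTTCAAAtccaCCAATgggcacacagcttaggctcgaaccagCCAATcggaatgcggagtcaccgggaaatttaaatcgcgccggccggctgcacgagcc
CDC20, chr1:43358783-43358980, plus strand: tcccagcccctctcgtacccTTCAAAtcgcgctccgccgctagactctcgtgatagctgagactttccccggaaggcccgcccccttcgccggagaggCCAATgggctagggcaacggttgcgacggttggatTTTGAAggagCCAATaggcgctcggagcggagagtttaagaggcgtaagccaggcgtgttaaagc
CENPA, chr2:26785831-26786055, plus strand: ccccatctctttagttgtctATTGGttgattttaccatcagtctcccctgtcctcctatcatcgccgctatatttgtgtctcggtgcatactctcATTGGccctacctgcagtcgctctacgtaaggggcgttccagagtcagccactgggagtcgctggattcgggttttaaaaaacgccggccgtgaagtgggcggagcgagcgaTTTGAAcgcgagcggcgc
INCENP, chr11:62123884-62124010, plus strand: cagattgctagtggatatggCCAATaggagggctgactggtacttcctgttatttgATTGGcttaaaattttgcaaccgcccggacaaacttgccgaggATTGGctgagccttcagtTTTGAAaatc
KIF11, chr10:92593057-92593129, plus strand: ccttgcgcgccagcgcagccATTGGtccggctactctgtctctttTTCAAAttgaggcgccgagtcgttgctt
CDCA8, chr1:37692381-37692515, plus strand: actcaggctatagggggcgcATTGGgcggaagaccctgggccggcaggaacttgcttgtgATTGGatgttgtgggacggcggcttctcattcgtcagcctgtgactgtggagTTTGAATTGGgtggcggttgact

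In MKI67 and CDCA8 the CHR letters share 1 base with an ATTGG that follows them. Over windows of 300 bases (250 before the start and 50 after), TTTGAA on either strand was present in 40 of 66 matched promoters of tested G2 and mitosis members with no feature opposite (60.6%), and in 17 of 26 (65.4%) of those that rose. The share was 25.2% over all 127 matched promoters of such features that rose, 16.7% over 48 that fell, 10.4% over 3937 that were not called and 15.4% over all 27305 promoters of the table. The CCAAT letters were in 44 of the 66 G2 and mitosis promoters (66.7%) and in 35.7% of all promoters. They were also in 23 of 39 matched promoters of tested S phase members with no feature opposite (59.0%), so they do not set the 2 groups of lists apart. The lists were drawn from knowledge of cell cycle genes and with earlier results of these data known, so these shares describe the lists. A match is a description of letters and not of a bound site.

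Among regulators of mitotic entry, 8 of 26 tested members rose and 2 fell. CCNB1, the B-type cyclin that activates CDK1, was at 2.97, 2.98 and 1.52 CPM in arrested cells of A, B and C and at 9.32, 8.04 and 7.67 CPM at 6 h. All 3 released libraries lay above all 3 arrested ones, and the log2 change was 1.75 ± 0.47 (SE from the fit, n = 3 pairs, adjusted p = 0.0068). CDC25B, a phosphatase that activates CDK1, went from 8.9, 8.95 and 4.57 CPM to 24.2, 36.7 and 23.6 CPM (log2 change 1.92 ± 0.29, adjusted p = 8.5e-08). TPX2, which activates Aurora A on spindles, went from 27.9, 23.9 and 31 CPM to 71.3, 46.7 and 66.9 CPM (1.15 ± 0.18, adjusted p = 3.07e-07). The spindle protein FAM83D had the largest change of this list, from 1.19, 1.49 and 2.03 CPM to 20.5, 19.1 and 13.2 CPM (3.42 ± 0.43, adjusted p = 1.02e-10). WEE1, the kinase that restrains CDK1, was also higher, with 8.2 CPM on average in arrest and 16.3 CPM at 6 h (0.99 ± 0.31, adjusted p = 0.0274, and 0.0643 without the block). PKMYT1, a kinase of the same list (opposite PAQR4 and KREMEN2), went the other way. It had 225 CPM on average in arrest and 144 CPM at 6 h (log2 change -0.6), and was not called without the block. Not all of the core genes were called. CDK1 was at 4.75, 12.4 and 9.15 CPM in arrest and 15.8, 7.03 and 12.1 CPM at 6 h, ranges that overlap (0.37 ± 0.36, adjusted p = 0.659). AURKA, the Aurora A kinase, had a log2 change of 1.07 ± 0.46 (adjusted p = 0.164), with 3.05 to 3.56 CPM in arrest and 5.02 to 11.5 CPM at 6 h. The transcription factor MYBL2 was lower in all 3 released libraries without passing the test (log2 change -0.83 ± 0.29, adjusted p = 0.0552).

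At the centromere and kinetochore 7 of 29 tested members rose and 1 fell. CENPA, the histone H3 variant that marks centromeres, had 1, 1 and 2 counts in the arrested libraries and 21, 25 and 12 at 6 h (log2 change 3.66 ± 0.59, adjusted p = 5.61e-07). HJURP, its chaperone (opposite MROH2A), went from 7.71, 8.45 and 6.1 CPM to 42.9, 28.1 and 33.4 CPM (2.2 ± 0.28, adjusted p = 6.22e-11). Both the centromeric histone and its chaperone were thus higher in every released library than in any arrested one. CENPF, a large kinetochore protein, went from 38, 56.7 and 47.8 CPM to 113, 90.4 and 97 CPM (1.08 ± 0.15, adjusted p = 3.84e-09). The kinetochore motor CENPE went from 7.71, 14.9 and 17.8 CPM to 54.1, 24.1 and 34.5 CPM (1.41 ± 0.26, adjusted p = 6.62e-05). BUB1B, a spindle checkpoint protein, rose by 1.21 ± 0.3 on the log2 scale (adjusted p = 0.00297), while the checkpoint kinase BUB1 had 1.12 ± 0.41 and did not pass (adjusted p = 0.0727). The member that fell, CENPO, is opposite ADCY3 and PTRHD1, and its call did not hold without the block (adjusted p = 0.0124 with it and 0.459 without).

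The spindle list had the most calls, 21 of 34 tested members higher and 1 lower, with a median log2 change of 0.94; without the block 12 were higher and 1 lower. PSRC1, which promotes microtubule growth at the spindle, had 0, 3 and 2 counts in arrest and 26, 18 and 28 at 6 h (log2 change 3.7 ± 0.55, adjusted p = 5.28e-08). ASPM, a protein of the spindle poles, went from 10.1, 15.4 and 13.7 CPM to 50.8, 29.1 and 35.1 CPM (1.51 ± 0.24, adjusted p = 4.13e-07). KIF11, the kinesin that separates spindle poles, went from 15.4, 14.4 and 13.2 CPM to 37.3, 21.1 and 29.6 CPM (1.01 ± 0.25, adjusted p = 0.00215). Levels in the 2 conditions did not overlap for any of these 3 genes. TACC3, which binds spindle microtubules, rose by 1.02 ± 0.18 on the log2 scale (adjusted p = 4.84e-06). KIF14, a kinesin of the midbody, was called at 1.46 ± 0.39 (adjusted p = 0.0056, and 0.067 without the block), although its arrested library of B (8.45 CPM) lay above its 6 h library of B (7.03 CPM).

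Proteins of mitotic chromosomes were higher in 9 of 22 tested members and lower in none. MKI67, the proliferation antigen that coats mitotic chromosomes, went from 189, 215 and 206 CPM to 444, 442 and 416 CPM, with little spread within either condition (log2 change 1.09 ± 0.1, adjusted p = 1.03e-17). KPNA2, an importin that also regulates spindle assembly, went from 20.2, 13.4 and 9.65 CPM to 64.3, 60.3 and 53.2 CPM (2.06 ± 0.21, adjusted p = 3.76e-15). TOP2A, the topoisomerase that untangles sister chromatids, went from 54, 64.1 and 50.8 CPM to 119.8, 88.9 and 101 CPM (0.87 ± 0.15, adjusted p = 2.41e-06). The released libraries of each gene lay above the arrested ones. INCENP and CDCA8, subunits of the chromosomal passenger complex, rose by 1 ± 0.17 and 1.56 ± 0.41 on the log2 scale (adjusted p = 2.58e-06 and 0.00497), whereas its kinase AURKB was not called (0.4, adjusted p = 0.7).

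Of the genes of the anaphase promoting complex (APC/C) and cytokinesis, 11 of 25 tested rose and none fell. CDC20, the activator of the APC/C in mitosis, went from 6.53, 9.44 and 10.2 CPM to 30.3, 44.7 and 28.5 CPM (log2 change 1.96 ± 0.26, adjusted p = 1.23e-09). UBE2S, a ubiquitin-conjugating enzyme of the APC/C, went from 47.5, 56.2 and 39.6 CPM to 107, 122 and 114 CPM (1.26 ± 0.14, adjusted p = 5.36e-13). Its partner enzyme UBE2C went from 5.93, 17.9 and 12.2 CPM to 25.2, 15.6 and 32.3 CPM (0.99 ± 0.28, adjusted p = 0.0144, and 0.135 without the block). The 2 conditions were apart for CDC20 and UBE2S and overlapped for UBE2C, which was lower at 6 h than in arrest in experiment B.

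**Figure D2:**
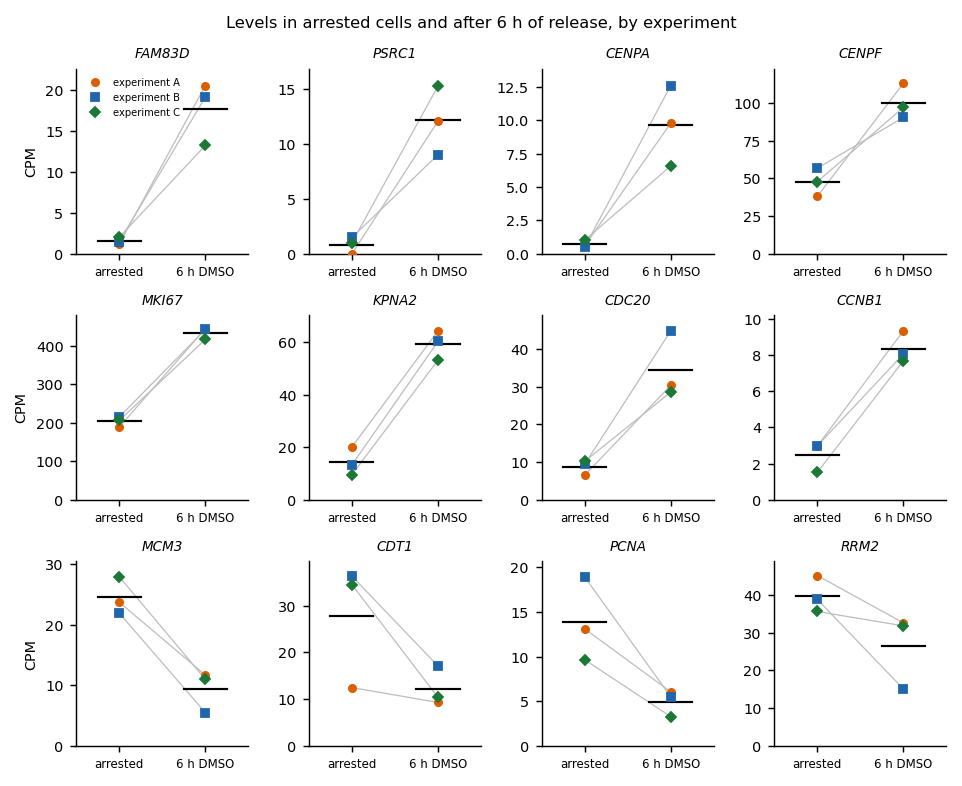
CPM of 12 genes in the arrested libraries and at 6 h, with 1 marker per library, grey lines joining the libraries of an experiment and black bars at the means of 3. In the first 8 panels, genes of G2 and mitosis, each 6 h library lies above its arrested partner; in MCM3, CDT1 and PCNA each lies below it; RRM2 (arrested 35.6 to 45.1 CPM, 6 h 15.1 to 32.6 CPM) was not called.

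Features opposite to members of these lists often held more counts than the members. In 39 of 62 pairs of a tested G2 and mitosis member and a tested feature opposite to it, the opposite feature had the higher summed level. Of the 60 distinct opposite features, 32 rose and 4 fell. AC008870.3, opposite PLK1, went from 127, 95.9 and 115 CPM to 719, 471 and 475 CPM (log2 change 2.28 ± 0.11, adjusted p = 1.55e-32). PLK1 itself, the kinase that drives mitotic entry and spindle assembly, went from 2.37, 4.47 and 7.11 CPM to 24.7, 17.1 and 20.8 CPM (2.11 ± 0.33, adjusted p = 2.2e-07), and ERN2, also opposite PLK1, rose by 2.45 ± 0.2. AC106820.5, opposite CCNF, the cyclin F subunit of a ubiquitin ligase, went from 83.1, 76.6 and 89.4 CPM to 429, 313 and 350.1 CPM (2.12 ± 0.12, adjusted p = 3.52e-37). CCNF itself rose by 1.75 ± 0.31 (adjusted p = 4.86e-06). For these loci both strands moved the same way.

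In 4 pairs the member and the feature opposite to it were called in different directions. GPSM2, a spindle orientation protein, fell from 432, 329 and 454 CPM to 268, 241 and 246 CPM (log2 change -0.68 ± 0.1, adjusted p = 5.47e-08). CLCC1, a chloride channel gene opposite to it, rose from 116, 118 and 126 CPM to 497, 391 and 385 CPM (1.81 ± 0.11, adjusted p = 5.78e-31). CCNA2, the cyclin of S phase and G2, was at 159, 113 and 159 CPM in arrest and 121, 97.9 and 100.3 CPM at 6 h (-0.42 ± 0.13, adjusted p = 0.0205, and 0.281 without the block). EXOSC9, an exosome subunit opposite CCNA2, went from 215, 147 and 267 CPM to 572, 316 and 436 CPM (1.07 ± 0.11, adjusted p = 8.58e-13, and 0.128 without the block). In 10 further pairs only the opposite feature rose. DIS3, another exosome subunit, opposite the Aurora A activator BORA, went from 84.8, 73.1 and 85.4 CPM to 391, 342 and 259 CPM (2.01 ± 0.12, adjusted p = 1.42e-28). Which gene's RNA these counts come from was not tested.

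**Figure D3:**
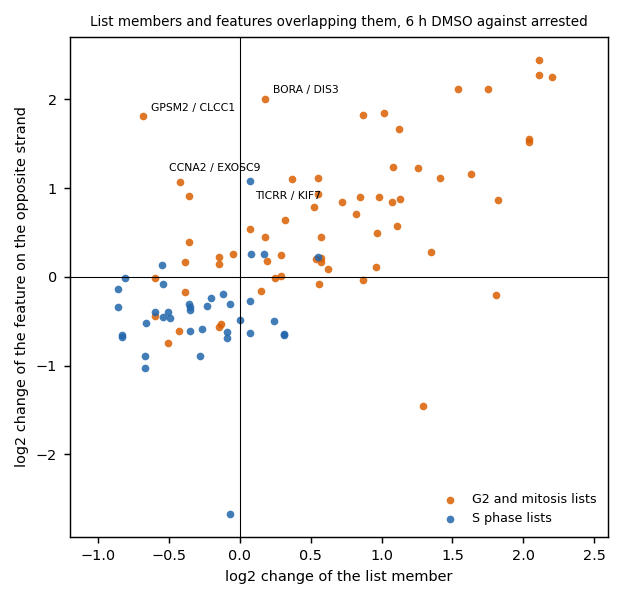
Log2 change at 6 h against arrest of a list member (horizontal) and of the feature that overlaps it on the opposite strand (vertical), 1 point per pair, 62 for the G2 and mitosis lists (orange) and 37 for the S phase lists (blue). Points labelled with member and opposite feature include GPSM2 and CLCC1, at -0.68 and 1.81, above and to the left of the origin.

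Genes of DNA replication were lower at 6 h or were not called. Of 87 genes in 3 lists of S phase, 74 were tested; none rose, 9 fell and 65 were not called, with a median log2 change of -0.33 (-0.33, -0.31 and -0.37 in A, B and C). Without the block 2 of the 74 fell. With experiment B left out 4 fell, without its 6 h library 4 and without its arrested library 5. DESeq2 with the same block called 5. Of 7 that fell and have no feature opposite, 4 are printed because E2F letters lie in the 250 bases before their start. The rest had no such letters there, no matched promoter or lay on a chromosome left out of the printing. Capitals mark the E2F letters (TTTCCCGC, TTTGGCGC, TTTGCCGC or TTTCGCGC, either strand). CCAAT letters, which MCM3 and PCNA also hold, are left in lower case. The sequences come from the same table and in the same orientation as above.
MCM3, chr6:52284743-52284936, minus strand: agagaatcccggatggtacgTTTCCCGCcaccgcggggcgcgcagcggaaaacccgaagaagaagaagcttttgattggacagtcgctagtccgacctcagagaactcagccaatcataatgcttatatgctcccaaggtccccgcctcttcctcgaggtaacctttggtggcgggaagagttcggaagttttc
CDT1, chr16:88803734-88803788, plus strand: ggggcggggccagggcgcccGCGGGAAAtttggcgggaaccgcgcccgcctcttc
PCNA, chr20:5126623-5126701, minus strand: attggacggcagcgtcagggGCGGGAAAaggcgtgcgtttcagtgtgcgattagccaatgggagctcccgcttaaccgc
HELLS, chr10:94545692-94545787, plus strand: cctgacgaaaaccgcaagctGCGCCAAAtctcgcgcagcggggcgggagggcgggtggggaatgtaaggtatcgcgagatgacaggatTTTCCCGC

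E2F letters were in 13 of 39 matched promoters of tested S phase members with no feature opposite (33.3%), in 3.33% of all promoters and in 10.6% of the 66 G2 and mitosis promoters. None of the 39 held the CHR letters, which allows no statement on the factors that bind there.

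Licensing factors, which load the replicative helicase before S phase, were lower in 5 of 21 tested members. CDC6, a loader of the helicase, had 11, 9 and 7 counts in arrest and 1, 0 and 1 at 6 h (adjusted p = 0.00386, and 0.0506 without the block). Its summed level in arrest was 14.2 times that at 6 h, with a 95% exact counting interval from 3.57 to 123. MCM3, a helicase subunit, went from 23.7, 21.9 and 27.9 CPM to 11.7, 5.52 and 11 CPM, with no overlap (log2 change -1.39 ± 0.29, adjusted p = 0.000226). CDT1, the other loader, was at 12.5, 36.3 and 34.5 CPM in arrest and 9.32, 17.1 and 10.4 CPM at 6 h. It was lower at 6 h within each experiment, but the arrested library of A lay among the released ones (-1.18 ± 0.28, adjusted p = 0.00112, and 0.156 without the block). MCM4, a further helicase subunit, fell by 1.01 ± 0.3 on the log2 scale (adjusted p = 0.0177, and 0.137 without the block). MCM2 (opposite TPRA1) had -0.81 (adjusted p = 0.061) and MCM5 -0.39 (adjusted p = 0.67), so the helicase subunits were not all called.

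At the replication fork 3 of 30 tested members fell. PCNA, the sliding clamp of DNA polymerases, went from 13.1, 18.9 and 9.65 CPM to 6.06, 5.52 and 3.29 CPM, with every released library below every arrested one (log2 change -1.46 ± 0.39, adjusted p = 0.00675, and 0.0593 without the block). HELLS, a chromatin remodeller, and NASP, a histone chaperone, fell by 1.14 ± 0.37 and by 0.68 ± 0.22 on the log2 scale (adjusted p = 0.0358 and 0.0378, and 0.16 and 0.134 without the block). In the 6 fits that left out 1 library, the call of HELLS was lost in 4 and that of NASP in all 6. Of the enzymes of nucleotide supply 1 of 23 fell (4.35%), near the 3.94% of all tested features. It was TYMS, the thymidylate synthase (opposite ENOSF1 and TYMSOS). It went from 79.5, 74.1 and 74.7 CPM to 44.7, 49.7 and 34 CPM (-0.83 ± 0.17, adjusted p = 0.00012), and TYMSOS went from 707, 559 and 701 CPM to 474, 363 and 393 CPM (-0.68 ± 0.1, adjusted p = 5.27e-09, and 0.0516 without the block). RRM2, the regulated subunit of ribonucleotide reductase, did not pass (-0.6 ± 0.21, adjusted p = 0.0686).

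More of the features opposite to S phase members were called than of the members. Of 38 such features, which include features opposite to members not tested, 19 fell and 1 rose. In 28 of 37 pairs of a tested member and a tested feature opposite to it, the opposite feature had the higher summed level. HSD17B6, opposite the primase subunit PRIM1, went from 63.5, 59.7 and 85.9 CPM to 21.9, 16.1 and 23 CPM (log2 change -1.79 ± 0.2, adjusted p = 6.7e-13). The 1 that rose was KIF7, a kinesin of primary cilia opposite the origin firing factor TICRR, from 96.1, 85.5 and 107 CPM to 229, 195 and 188 CPM (1.08 ± 0.12, adjusted p = 6.7e-13), while TICRR had 0.07 ± 0.19 (adjusted p = 0.896).

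Regulators of the G1/S transition showed 2 higher and 1 lower member among 22 tested, and none was called without the block. CCND1, cyclin D1 (opposite LTO1), was at 152, 156 and 153 CPM in arrest and 244, 192 and 268 CPM at 6 h (log2 change 0.6 ± 0.12, adjusted p = 6.25e-05, and 0.0845 without the block). CCNE2, a cyclin E, had -0.41 ± 0.17 (adjusted p = 0.159). INTS8, an Integrator subunit opposite CCNE2, went from 432, 199.8 and 465 CPM to 72.2, 23.6 and 72.3 CPM (-2.72 ± 0.23, adjusted p = 7.74e-07), and AC087752.4, also opposite CCNE2, had -2.58 ± 0.28 (adjusted p = 7.12e-14). VIL1, the gene of the actin-bundling protein villin, lies opposite USP37, a deubiquitinase that stabilises cyclin A. It went from 211, 177 and 214 CPM to 89.5, 79.9 and 80.5 CPM (-1.26 ± 0.12, adjusted p = 2.65e-16). E2F1 was not called (-0.84, adjusted p = 0.39), and CCNE1 and E2F8 were too low to be tested. Of 21 genes listed as replication histones, whose mRNAs mostly lack a poly(A) tail, 2 were tested.

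Targets of p53 were lower at 6 h in 8 of 26 tested members and higher in none, with a median log2 change of -0.59. The medians by experiment were -0.41, -1.03 and -0.3 in A, B and C, and without the block 2 members fell. CDKN1A, the CDK inhibitor p21 (overlapped by DINOL), was at 51.6, 135 and 48.8 CPM in arrest and 17.7, 47.2 and 35.6 CPM at 6 h. The groups did not overlap, but B was far above A and C in arrest (log2 change -1.19 ± 0.2, adjusted p = 3.15e-06, and 0.31 without the block). BBC3, the pro-apoptotic protein PUMA (opposite MIR3190), went from 7.12, 16.9 and 11.7 CPM to 1.86, 1.51 and 2.19 CPM (-2.6 ± 0.51, adjusted p = 5.53e-05). SESN2, a stress protein that restrains mTORC1, went from 15, 22 and 10 counts to 0, 4 and 2 (-3.02 ± 0.71, adjusted p = 0.00118). MDM2, the ubiquitin ligase of p53, fell by 0.84 ± 0.19 on the log2 scale (adjusted p = 0.000876, and 0.0544 without the block). Opposite to MDM2, AC025423.4 went from 1591, 2214 and 1811 CPM to 1071, 1029.7 and 911 CPM (-0.89 ± 0.11, adjusted p = 3.84e-08) and CPM, a carboxypeptidase gene, fell by 0.97 ± 0.11 (adjusted p = 5e-11). XPC-AS1, opposite the DNA repair gene XPC, went from 406, 459 and 416 CPM to 190.2, 196 and 180.3 CPM (-1.18 ± 0.11, adjusted p = 3.69e-18).

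In the list of the ATR checkpoint 2 of 20 tested members fell, and none did without the block. This is 10% called, beside 7.71% of all tested features and 10.5% of overlapped ones. CLSPN, a mediator of the ATR checkpoint at forks, was lower by a log2 change of -0.91 ± 0.29 (adjusted p = 0.0363; without the block 0.115). AL354864.1, opposite CLSPN, went from 216, 153 and 215 CPM to 92.3, 105 and 86 CPM (-1.04 ± 0.13, adjusted p = 5.04e-11). TP53BP1, a protein recruited to DNA breaks (opposite TUBGCP4), had -0.51 ± 0.11 (adjusted p = 0.000273, and 0.16 without the block). CHEK1, the effector kinase of ATR, had 0.6 (adjusted p = 0.58). Among 21 tested genes of homologous recombination and the Fanconi pathway, 2 fell and 1 rose; without the block 1 fell and none rose. RBBP8, the end resection factor CtIP, went from 9.49, 14.4 and 21.8 CPM to 3.73, 7.03 and 5.48 CPM (log2 change -1.5 ± 0.38, adjusted p = 0.00364), all released libraries being below all arrested ones. BRCA1 (opposite RPL21P4) had -1.32 ± 0.4 (adjusted p = 0.0199, and 0.114 without the block). XRCC3, a protein of homologous recombination, went from 197, 211 and 266 CPM to 278, 371 and 343 CPM (0.55 ± 0.1, adjusted p = 2.19e-05, and 0.0614 without the block), while KLC1, a kinesin light chain opposite to it, went from 290.1, 302 and 411 CPM to 210.2, 192 and 186 CPM (-0.77 ± 0.11, adjusted p = 1.51e-08).

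**Figure D4:**
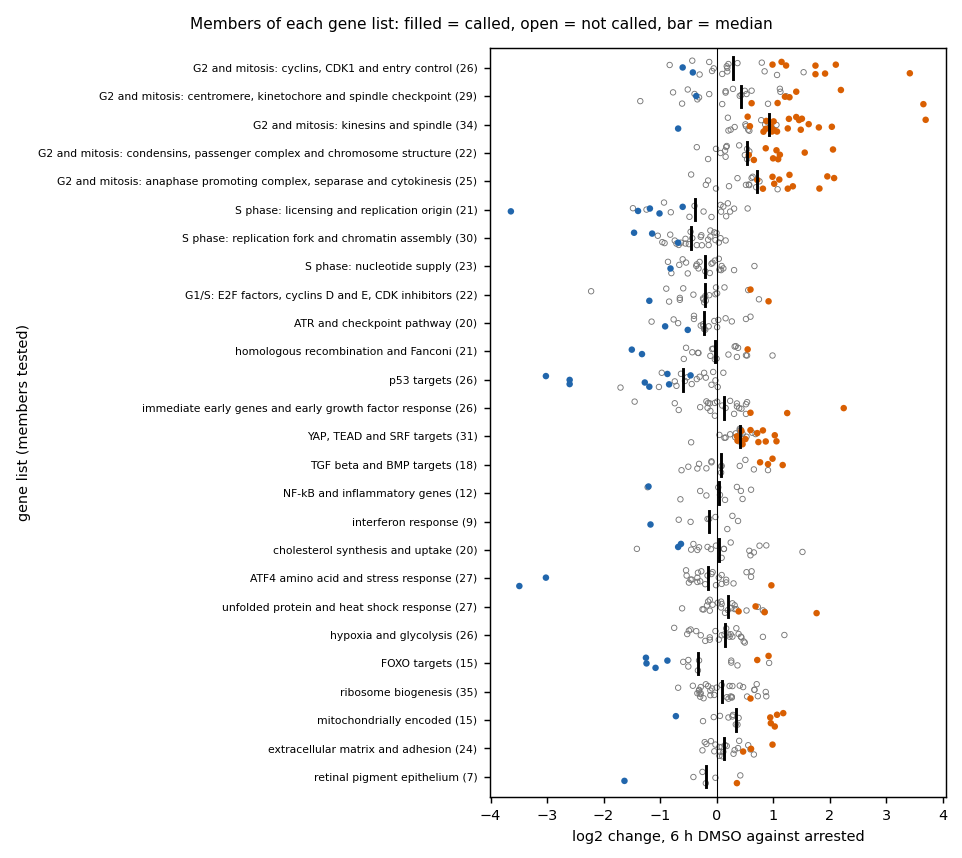
Log2 change at 6 h against arrest of each tested member of 26 gene lists, 1 point per gene, filled orange where called higher, filled blue where called lower and open where not called; black bars are list medians. The medians of the 5 G2 and mitosis lists lie between 0.29 and 0.94, those of the 3 S phase lists between -0.44 and -0.20, and that of the p53 targets at -0.59.

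In the list of YAP, TEAD and SRF targets, which code largely for actin, its partners and secreted regulators, 13 of 31 tested members rose and none fell, with a median log2 change of 0.42; without the block 4 rose. ANKRD1, a nuclear cofactor and a standard reporter of YAP, went from 121, 111 and 98.6 CPM to 214, 184 and 184 CPM (0.82 ± 0.15, adjusted p = 0.000237). ZYX, the focal adhesion protein zyxin (opposite EPHA1), went from 42.7, 47.2 and 28.5 CPM to 68.5, 81.4 and 99.7 CPM (1.06 ± 0.17, adjusted p = 9.25e-07). The released libraries of both lay above the arrested ones. ACTB, cytoplasmic actin, had 0.36 ± 0.09 (adjusted p = 0.00312, and 0.31 without the block). CCN1, another YAP target, was not called (0.42, adjusted p = 0.099).

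Of 26 tested immediate early genes 3 rose and none fell. KLF6, a zinc finger factor of the early growth response, had 11, 11 and 4 counts in arrest and 53, 35 and 46 at 6 h (log2 change 2.25 ± 0.36, adjusted p = 6.94e-07). KLF2 and FOSL1, further transcription factors of this list, rose by 1.25 ± 0.27 and 0.6 ± 0.14 (adjusted p = 0.000303 and 0.0008). JUN (0.44, adjusted p = 0.18) and EGR1 (-1.45, adjusted p = 0.41) were not called, and FOS was too low to be tested. Among 18 tested targets of TGF beta and BMP 4 rose (1 without the block), among them GREM1, a secreted BMP antagonist, from 40.3, 33.3 and 31 CPM to 76.4, 69.3 and 89.9 CPM (1.17 ± 0.17, adjusted p = 9.3e-09). GREM1-AS1, opposite to it, went from 233, 204 and 202 CPM to 440.4, 420.4 and 413 CPM (1 ± 0.1, adjusted p = 1.88e-14).

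Stress pathways gave scattered calls. DDIT4, an inhibitor of mTORC1 in the ATF4 list, had 19, 8 and 21 counts in arrest and 0, 2 and 2 at 6 h (log2 change -3.49 ± 0.8, adjusted p = 0.000855). DDIT4-AS1, opposite to it, went from 831, 726 and 1152 CPM to 113, 98.9 and 94.2 CPM (-3.13 ± 0.27, adjusted p = 4.19e-05), a fall of similar size on both strands. SLC7A5, an amino acid transporter in the same list (opposite AC126696.2), went the other way, from 83.1, 81 and 59.4 CPM to 142, 116 and 189 CPM (0.97 ± 0.17, adjusted p = 7.09e-05). In all, 1 of 27 tested ATF4 genes rose and 2 fell. Of 27 genes of the unfolded protein and heat shock responses 4 rose and none fell, and without the block 2 rose. They included the chaperones HSPA8, from 78.9, 70.1 and 95 CPM to 157, 109 and 128 CPM (0.69 ± 0.14, adjusted p = 6.67e-05), and HSPA1A, from 3, 6 and 7 counts to 18, 25 and 15 (1.77 ± 0.46, adjusted p = 0.00488).

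Mitochondrially encoded features changed in both directions, 5 of 15 higher and 1 lower, with 3 higher and 1 lower without the block. MT-CO3, a subunit of cytochrome oxidase, went from 1074, 692 and 1119 CPM to 2101, 1504 and 2442 CPM (log2 change 1.07 ± 0.08, adjusted p = 2.32e-23). MT-ND5, a subunit of complex I, went from 7728, 4116 and 6739 CPM to 12546, 8975 and 14054 CPM (0.96 ± 0.07, adjusted p = 1.81e-22, and 0.101 without the block). MT-ND6, the one protein gene transcribed from the other mitochondrial strand, went from 19196, 15007 and 18791 CPM to 11304, 10906 and 9888 CPM (-0.72 ± 0.07, adjusted p = 3.76e-15). Given the strand distribution of the counts, these values are uncertain as to the strand. Of 15 tested FOXO targets 2 rose and 4 fell. Of the other lists, 2 of 20 genes of cholesterol synthesis and uptake fell and 1 of 35 of ribosome biogenesis rose. In the extracellular matrix list 3 of 24 rose, and 1 of 12 of NF-kB and 1 of 9 of the interferon response fell. Over all tested features 3.77% rose and 3.94% fell, so counts of 1 or 2 say little about a list. Of 7 tested markers of retinal pigment epithelium 1 was higher and 1 lower, and of 4 tested markers of other cell types 1 was higher, COL1A1. None of these calls on FOXO targets, extracellular matrix, interferon genes or cell type markers was made without the block. None of 26 genes of hypoxia and glycolysis was called by edgeR or by DESeq2, and 5 had an unadjusted edgeR p under 0.05.

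Outside the lists, the features with the largest changes and no partner were mostly low. VWA3B went from 2, 4 and 3 counts to 33, 44 and 18 (log2 change 3.29 ± 0.47, adjusted p = 9.06e-09). C19orf33 had 3 counts over the arrested libraries and 36 at 6 h, a ratio of 11.4 with an exact counting interval from 3.61 to 57.9 (adjusted p = 0.00194). ASIC5, an ion channel gene, had 30 counts over the arrested libraries and 2 at 6 h, a ratio of 15.8 with an interval from 4 to 136 (adjusted p = 0.00947, and 0.101 without the block). STAC3, known from the calcium release machinery of muscle, went from 19, 42 and 39 counts to 0, 14 and 3 (-2.67 ± 0.45, adjusted p = 3.2e-06, and 0.0731 without the block). CCR7, a chemokine receptor, went from 19.6, 23.9 and 11.7 CPM to 2.33, 2.51 and 6.58 CPM (-2.31 ± 0.39, adjusted p = 2.22e-06). The other rises named by the same rule outside the lists were MT-TM, PIM3 and C1QL4, and the other falls RPL29P11, PHYHIP, CLN8-AS1, TOX2, PSG4 and CHRNG. Of these, 6 were not called without the block: PIM3 (adjusted p = 0.0788), C1QL4 (0.281), RPL29P11 (0.199), CLN8-AS1 (0.167), PSG4 (0.577) and CHRNG (0.322). The 2 conditions overlapped for PSG4. The call of CHRNG was also lost in each of the 6 fits that left out 1 library.

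Cells collected 4 h after release, after 3 h in DMSO, are in late S phase by the design text. The comparisons that follow share libraries with the one above and are given side by side. From arrest to 4 h 644 features were called (4.77%; 100 without the block), and from 4 h to 6 h 141 were (1.04%; 11 without the block). Of the 136 G2 and mitosis members 18 rose and 1 fell from arrest to 4 h, and 18 rose and none fell from 4 h to 6 h. MKI67 had means of 204, 320.5 and 434 CPM in arrest, at 4 h and at 6 h, with log2 changes of 0.66 (adjusted p = 5.65e-07) and then 0.44 (adjusted p = 0.00316). TOP2A had 56.3, 60.3 and 103 CPM, with changes of 0.1 (adjusted p = 0.84) and then 0.77 (adjusted p = 0.000165). UBE2S had 47.8, 85.9 and 114 CPM, with changes of 0.85 (adjusted p = 6.14e-06) and then 0.41 (adjusted p = 0.12). VIL1, opposite USP37, had 200.5, 157 and 83.3 CPM.

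Of the 31 YAP, TEAD and SRF targets 14 rose from arrest to 4 h and none was called from 4 h to 6 h. GREM1-AS1 had means of 213, 650.4 and 425 CPM in arrest, at 4 h and at 6 h. DDIT4-AS1 had 903, 159.8 and 102 CPM, and TBPL1, opposite the glucose transporter gene SLC2A12, had 77.2, 21.2 and 16.9 CPM. For these 3 features the 4 h libraries lay entirely outside the range of the arrested ones. CDC6, by contrast, had a change of 0.02 from arrest to 4 h (adjusted p = 0.993) and of -3.66 from 4 h to 6 h (adjusted p = 0.0157).

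Asynchronously cycling cells give the reference for the block itself. Between arrested and cycling cells 762 features were called (5.64%; 139 without the block), and this comparison shares the arrested libraries. Of the 136 G2 and mitosis members 24 were lower in arrest than in cycling cells and 1 was higher. AC008870.3, opposite PLK1, had means of 398 CPM in cycling cells, 113 CPM in arrest and 555 CPM at 6 h. Of the 26 p53 targets 12 were higher in arrest than in cycling cells and none was lower. CDKN1A had means of 13.2 CPM in cycling cells, 78.4 ± 48.8 CPM (SD, n = 3) in arrest and 33.5 ± 14.9 CPM at 6 h. AC025423.4, opposite MDM2, had 606, 1872 and 1004 CPM in these 3 conditions. Of the S phase members 1 of 74 was higher and 3 were lower in arrest than in cycling cells.

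**Figure D5:**
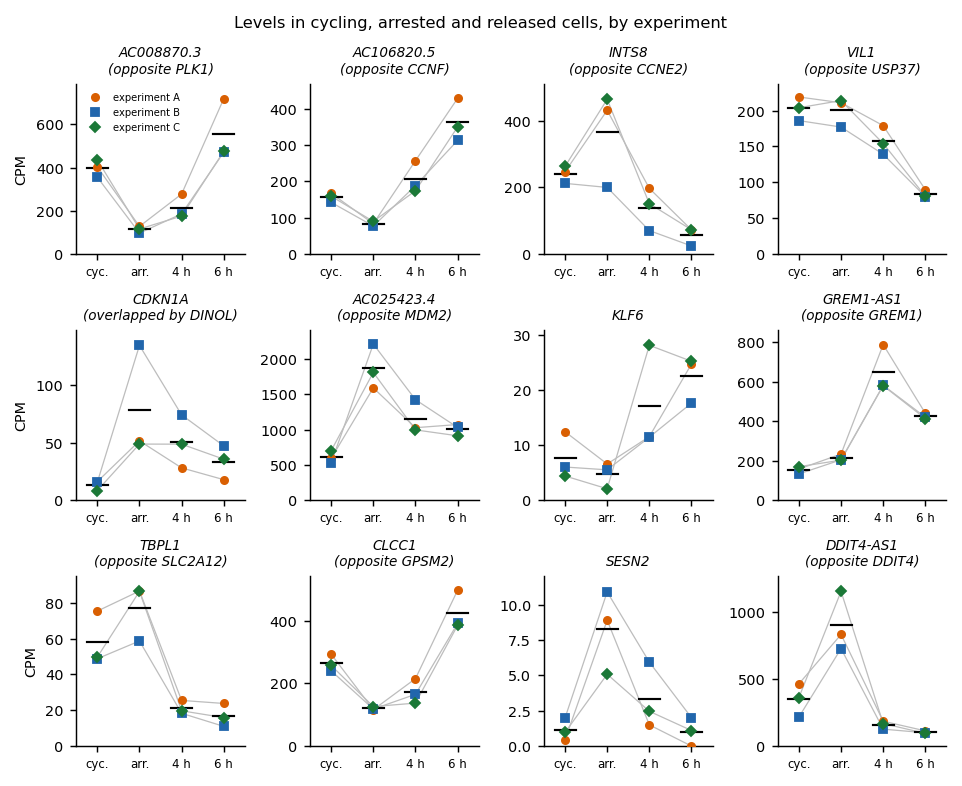
CPM of 12 features in cycling (cyc.), arrested (arr.), 4 h DMSO and 6 h DMSO libraries, 1 marker per library, with grey lines joining the libraries of an experiment and black bars at the means of 3; overlapped features are shown with their partner. AC008870.3 falls from 398 CPM in cycling cells to 113 CPM in arrest and is at 555 CPM at 6 h, whereas DDIT4-AS1 is highest in arrest (903 CPM).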

How the data were processed

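RNA of RPE-1 cells was sequenced in 17 libraries. The authors deposited whole-number counts per gene, not normalised, and a table of log2 fold changes with adjusted p-values. Its log2 values are arrested minus 6 h, as checked against the counts. TopHat, HTSeq, DESeq2 and GRCh37 are named in the submitters' processing notes; the sources used here give no versions and no strand setting. Of 60252 features 40412 matched a symbol; GENCODE 29 served only for further names and opposite-strand overlap.

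Features passing filterByExpr (minimum count 10, total 15) were fitted in edgeR 4.0.16 (R 4.3.3; TMM, robust glmQLFit, glmQLFTest), 1 mean per condition over all 17 libraries plus the experiment letter as a block (9 residual degrees of freedom). Deviations of 6 h and arrested libraries of the same letter correlated across features at 0.184, 0.454 and 0.156 in A, B and C, so the letters were taken to pair them; for A the correlation with C was higher (0.227). P-values measure the spread between these cultures. Standard errors of log2 changes come from the same fit of all 17 libraries and are not those of the paired differences. CPM use TMM-scaled library sizes, except the summed marker levels, which use total counts. The fit was tested on simulated data that held no difference between experiments, so that test does not bear on the choice of the block. Counts have no molecular identifiers, so intervals cover counting error only.

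Named features, in a list or not, are called, at least 5 CPM on average in the higher condition and moved the same way in all 3 pairs: the 10 largest rises and falls without and the 6 with an opposite feature. From each list up to 4 called members with the smallest p and a fixed panel are named; further members and partners were chosen after their values were seen. Members and lists were chosen with earlier results of these data known. Some features are not reported here. Alternatives were no block, DESeq2 1.42.0, RLE factors, no filter, only the 6 libraries, and leaving out each library, experiment B or ENSG00000226958.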

Additional observations from a re-analysis of the deposited data

How the results depend on the processing

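Of the alternatives run, dropping the block moved the 4 counts of called features most. Without it 314 features were called at 6 h against arrest, 11 at 6 h against 4 h, 100 at 4 h against arrest and 139 in arrest against cycling cells. Leaving out 1 library gave 649 to 994 calls for 6 h against arrest, 68 to 120 for 6 h against 4 h, 341 to 669 for 4 h against arrest and 406 to 650 for arrest against cycling. The fewest came without arrested C (649), 6h_DMSO A (68), 4h_DMSO C (341) and cycling B (406). Of the S phase members 2 were called without the block, 5 with DESeq2 and 4 without experiment B, and 4 to 7 with 1 library left out. Their median log2 change ran from -0.38 to -0.27 with 1 library left out. The median of the G2 and mitosis members was 0.85 without experiment B. Of 161 named features that were called, 90 kept the call without the block, 158 with RLE factors and 122 to 138 with 1 library left out. Over the 6 fits that each left out 1 library, NASP, CHRNG and CDKN1B, a risen member of the G1/S and FOXO lists, lost the call in all 6. Those that lost it in 5 included WEE1, CLSPN, C1QL4, CLN8-AS1, PSG4, IFIT3, PIK3IP1 and TYRP1. HELLS, MCM4, KIF14 and UBE2C lost it in 4, and further named features lost it in some. None changed direction under the alternatives run. At about 2 counts per CPM, a feature of low level that was not called may still have changed.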

Other observations

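The features below were chosen after their values were seen and belong to no list used above. TRIO, a guanine nucleotide exchange factor, went from 38.6, 40.3 and 33.5 CPM in A, B and C to 76.4, 101 and 99.7 CPM (log2 change 1.3 ± 0.16, adjusted p = 5.03e-11). AC008440.2, opposite the membrane protein gene MYADM, went from 555, 401 and 443 CPM to 900, 883 and 1009 CPM (1 ± 0.09, adjusted p = 1.53e-18), and MYADM itself had 1.26 ± 0.31 (adjusted p = 0.00207). AC005005.3, opposite SMTN, the gene of the actin-binding protein smoothelin, went from 184, 172 and 195 CPM to 357, 339.5 and 318 CPM (0.88 ± 0.1, adjusted p = 7.53e-12). AC079329.1, opposite MICAL2, which oxidises actin, had 0.78 ± 0.09 (adjusted p = 5.02e-12). In each of these the released libraries lay above the arrested ones.

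Other such features were lower at 6 h. UTS2 and Z98884.1, both opposite PER3, a clock repressor, had log2 changes of -1.43 ± 0.21 and -1.59 ± 0.24 (adjusted p = 1.76e-08 and 4.76e-08). UTS2 went from 51.6, 58.7 and 63 CPM to 16.3, 31.1 and 18.6 CPM. SSPN, opposite BHLHE41, a further clock repressor, went from 104, 62.1 and 114 CPM to 42.4, 32.1 and 28.5 CPM (-1.43 ± 0.17, adjusted p = 1.15e-11). Which strand's gene these counts come from was not tested.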
